A study of Mus musculus with 32 samples.

Results

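The GATA factors are the 6 transcription factors Gata1 to Gata6, which were taken by name from the 23154 genes measured. They were followed in single cells of 8 organs (heart, somite, skin, lung, liver, intestine, forebrain and hindbrain) taken from 7 mouse embryos of the inbred strain C57BL/6J, 3 of them of embryonic day E9.5, 2 of day E10.5 and 2 of day E11.5. The labels name no treatment and no engineered allele for any embryo. E9.5 embryo 2 was labelled female and the others male. The 32 samples held 1916 cells, each picked from a dissociated organ. E9.5 embryo 3 had pooled samples, of lung with liver and of skin with intestine and somite, and the organ of these cells is that of the study's cell table. Of all cells, 1819 were kept by the study. In 14 pairs, both cells carried the same value for every gene, each pair within the same sample and embryo, and each pair was counted as 1 cell, which left 1805 cells. By the labels of the study, 246 of these were hematopoietic cells, 382 neuronal cells, 304 epithelial cells and 869 mesoderm-derived cells, and 4 had no such label. Cells of intestine, liver, lung and skin also carried a label Epi (epithelial) or Mes (mesenchymal). The study made these labels from the expression of the same cells, so differences of the GATA factors between labels are given as a description, and tests were made between organs and between days, which are labels of the dissection.

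All GATA factors carry zinc fingers that bind DNA at a short site spelled around the letters GATA. Gata1, Gata2 and Gata3 are best known from blood, where Gata1 drives erythroid and megakaryocyte differentiation, Gata2 maintains stem and progenitor cells, and Gata3 directs T cells. Gata2 also acts in endothelium and Gata3 in the epidermis and hair follicle, the ear and the kidney. Gata4, Gata5 and Gata6 are best known from heart and endoderm, where they act with partners such as Nkx2-5, Tbx5 and the co-factors Zfpm1 and Zfpm2.

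In the GENCODE M21 annotation of GRCm38, the members are protein-coding genes on 5 chromosomes, and the position of Gata6 is given with its levels. Gata1 lies at chrX:7959260-7978071 on the minus strand, Gata2 at chr6:88193891-88207032 on the plus strand, Gata3 at chr2:9857078-9890034 on the minus strand, Gata4 at chr14:63198922-63271692 on the minus strand, and Gata5 at chr2:180325133-180334699 on the minus strand. Promoter windows of 300 bases, from 250 bases before to 50 bases after an annotated start, were matched by symbol in RefSeq for GRCm38.p6 and gave 5 windows for 4 members, Gata1, Gata2 (with 2 starts), Gata3 and Gata5. Gata4 and Gata6 had no entry. The windows were searched on both strands for AGATAA, for AGATAG, for TGATAA and for TGATAG, 4 spellings of the same 6-base GATA site, of which no match can be counted under 2 spellings at the same position. The windows of Gata1, Gata3 and Gata5 are shown, whose levels below were highest in hematopoietic, in epithelial and in mesoderm-derived cells. Matches are in capitals, and the bases run 5′ to 3′ on the strand of the gene:
Gata1, chrX:7967861-7968160, minus strand: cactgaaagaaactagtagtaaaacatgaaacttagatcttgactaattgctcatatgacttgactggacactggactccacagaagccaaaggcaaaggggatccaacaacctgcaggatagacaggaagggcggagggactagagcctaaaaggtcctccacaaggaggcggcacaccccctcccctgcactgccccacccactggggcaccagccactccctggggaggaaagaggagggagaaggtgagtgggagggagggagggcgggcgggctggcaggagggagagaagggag
Gata3, chr2:9878551-9878850, minus strand: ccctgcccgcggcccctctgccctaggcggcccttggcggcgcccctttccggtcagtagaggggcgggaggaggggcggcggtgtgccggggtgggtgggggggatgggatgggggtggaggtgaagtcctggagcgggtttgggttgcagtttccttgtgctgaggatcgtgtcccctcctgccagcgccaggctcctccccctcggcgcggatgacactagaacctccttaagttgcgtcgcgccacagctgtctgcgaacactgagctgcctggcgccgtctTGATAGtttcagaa
Gata5, chr2:180334630-180334929, minus strand: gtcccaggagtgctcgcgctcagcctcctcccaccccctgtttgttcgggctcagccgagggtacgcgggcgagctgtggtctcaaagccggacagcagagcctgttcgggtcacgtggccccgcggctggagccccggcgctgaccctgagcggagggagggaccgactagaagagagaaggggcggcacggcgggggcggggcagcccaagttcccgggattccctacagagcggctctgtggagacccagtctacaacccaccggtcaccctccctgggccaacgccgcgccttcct
Of the 5 windows, only that of Gata3 held a match, TGATAG, whose first base lies 37 bases past the start. Of all 32851 windows in the table, 29.8% held a match. The G and C share was 57.3% in the window of Gata1, 67.3% in that of Gata3 and 69.7% in that of Gata5, and 69.3% and 73.7% in the windows of Gata2, against a median of 52.7% over all windows. The libraries read the 3′ side of transcripts and do not show which start was used.

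The value of a gene in a cell was its CPM, the number of its UMIs (molecules counted once each) for every 1000000 UMIs found in that cell. The level was the mean of log2(CPM/10 + 1) over the cells of a set in an embryo with at least 3 such cells, and a set was an organ together with a label. A cell was said to express a gene at 1 or more on this scale, and the embryo was the replicate throughout. Kept cells had 20326 to 2524348 UMIs (median 306271). Embryos 1 and 2 of E9.5 were labelled HiSeq 2500 (median 579613.5 UMIs per cell) and the other embryos HiSeq 4000 (median 240771). Hematopoietic cells had a median of 437877 UMIs, neuronal cells 252307, epithelial cells 301230.5 and mesoderm-derived cells 309609. Because heart and brain of E9.5 came only from the HiSeq 2500 embryos, day and sequencer cannot be told apart there. Shares of cells carry 95% Wilson intervals, which cover counting error only and take cells of an embryo as independent, and a limit given beside a count of 0 is for cells found at 1 or more on this scale, not for cells that use the gene.

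The GATA factors differed in the major group where their level was highest, and neuronal cells held almost none of them. At least 1 member was expressed in 209 of 246 hematopoietic cells (85.0%), in 233 of 304 epithelial cells (76.6%), in 480 of 869 mesoderm-derived cells (55.2%) and in 25 of 382 neuronal cells (6.54%). Gata1 was the hematopoietic member, Gata3 the one highest in epithelial cells, Gata4 and Gata5 those highest in mesoderm-derived cells, while Gata6 was shared by epithelial and mesoderm-derived cells and Gata2 was thinly spread. The levels by organ and label are shown in the plot of all 14 sets.

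**Figure D1:**
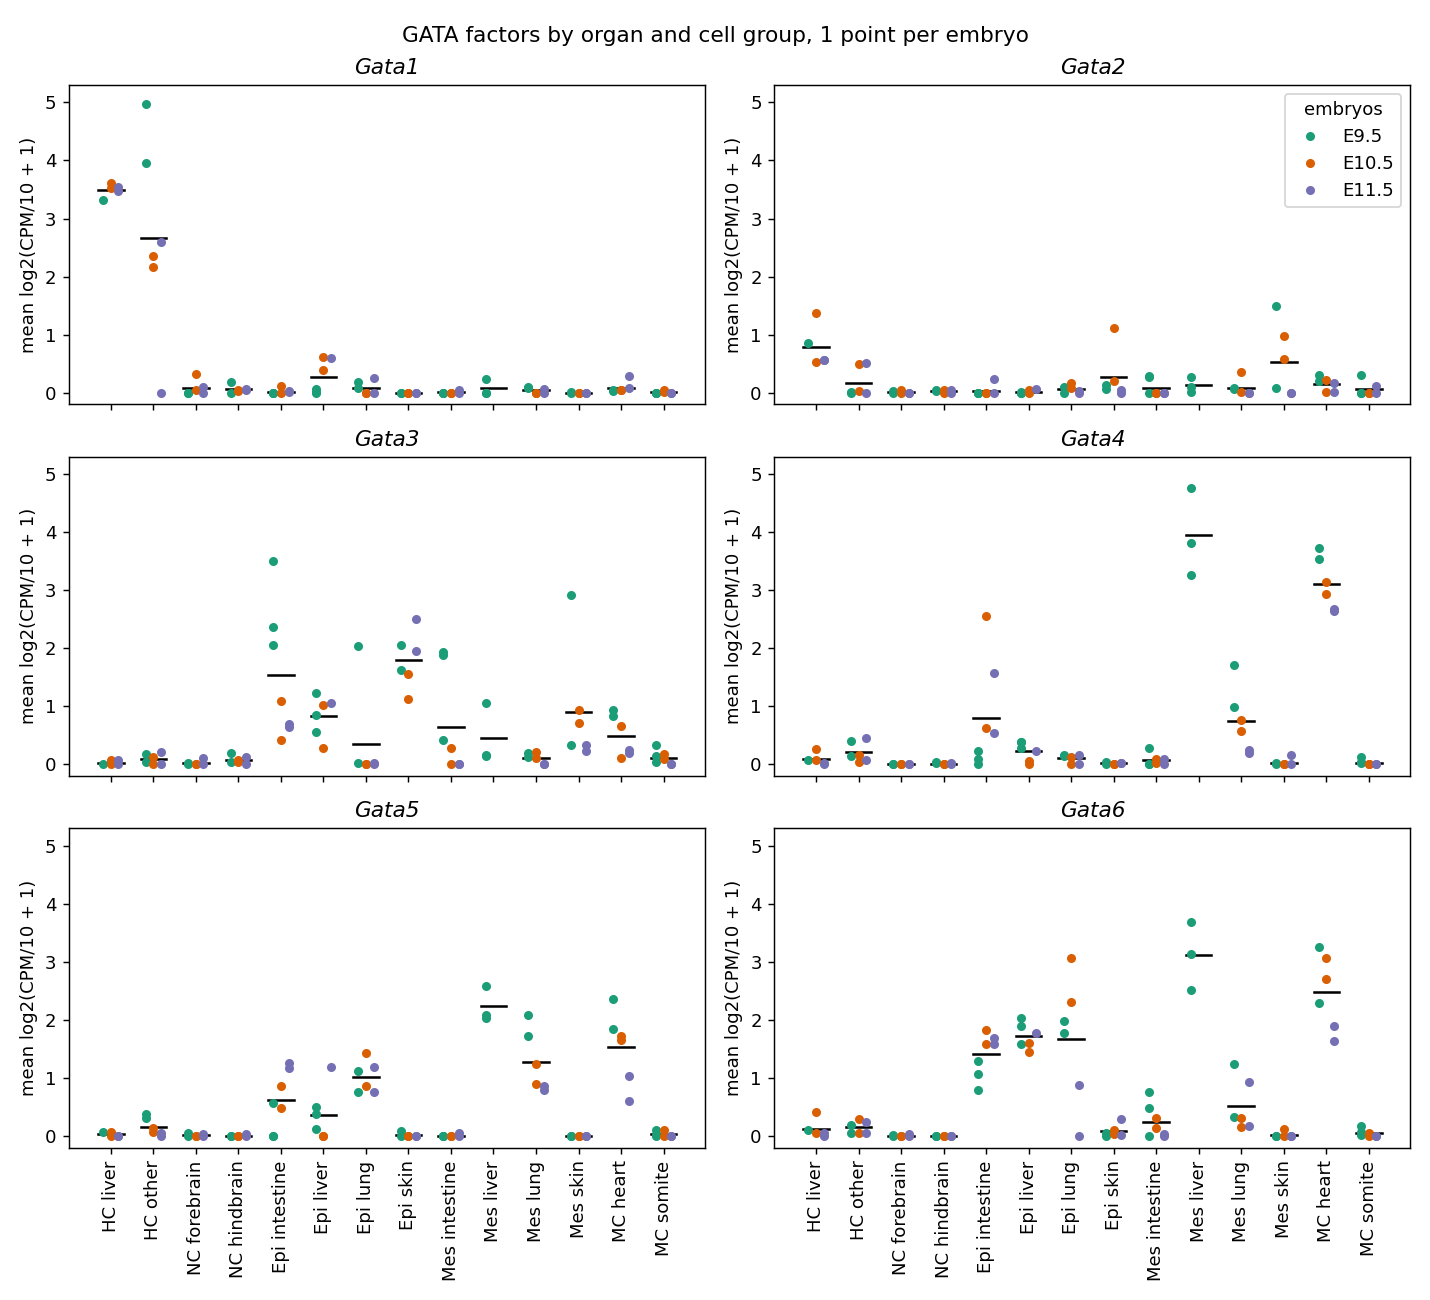
Levels of Gata1 to Gata6 in 14 sets of cells, as the mean of log2(CPM/10 + 1) over the cells of an embryo. Each point is an embryo coloured by day and each line the mean over embryos. Gata1 is highest in hematopoietic cells of the liver (3.50) and of the other organs (2.67). Gata4 is highest in Mes liver (3.94) and heart (3.11), and Gata3 in Epi skin (1.80) and Epi intestine (1.54).

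Gata1, the master factor of red cells, had a level of 3.53 ± 0.71 in hematopoietic cells (SD over embryos, n = 7). The 3 E9.5 embryos stood at 4.97, 3.95 and 2.93, the E10.5 embryos at 3.18 and 3.32 and the E11.5 embryos at 3.30 and 3.08, and the highest of them rests on 3 cells. No embryo of another major group was above 0.17. The groups did not overlap, which held for Gata1 alone of the 6 members, and for 7.09% of all genes. Gata1 was expressed in 203 of 246 hematopoietic cells (82.5%, interval 77.3 to 86.8%), against 1.57% of neuronal, 1.32% of epithelial and 0.806% of mesoderm-derived cells. After thinning every cell to 100000 UMIs, 193 of 227 hematopoietic cells (85.0%) kept a Gata1 UMI, as did 4.02% of neuronal cells, which are not known to use Gata1. The 6 neuronal, 4 epithelial and 7 mesoderm-derived cells that expressed Gata1 each also expressed at least 3 of 8 erythroid markers, as did 291 of 376 neuronal, 112 of 300 epithelial and 532 of 862 mesoderm-derived cells without Gata1. The part of these genes in the shares was not tested.

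Gata2 was at most 1.12 in any embryo of any major group. In hematopoietic cells its level was 0.48 ± 0.39 (n = 7), with 0.00, 0.02 and 0.75 at E9.5, 1.12 and 0.43 at E10.5, and 0.56 and 0.49 at E11.5. It was 0.18 ± 0.11 in mesoderm-derived cells, 0.09 ± 0.11 in epithelial cells and 0.02 ± 0.01 in neuronal cells (n = 6). These ranges overlapped. Gata2 was expressed in 21.1% of hematopoietic cells (52 of 246) and in 7.13% of mesoderm-derived cells.

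Gata3 had a level of 1.21 ± 0.55 in epithelial cells and 0.36 ± 0.23 in mesoderm-derived cells (n = 7 each), and 124 of 304 and 104 of 869 of these cells expressed it. The lowest epithelial embryo (0.57) was under the highest mesoderm-derived embryo (0.71), so the groups touched. Gata4 was the reverse, at 1.42 ± 0.76 in mesoderm-derived cells (38.4% of cells) and 0.41 ± 0.33 in epithelial cells (12.2%). Gata5 was at 0.87 ± 0.44 in mesoderm-derived cells (31.6%) and 0.47 ± 0.22 in epithelial cells (19.7%). Gata6, which lies at chr18:11052064-11085635 on the plus strand, did not separate them, at 1.21 ± 0.29 in epithelial cells (38.2%) and 1.14 ± 0.66 in mesoderm-derived cells (33.5%). In hematopoietic and neuronal cells the means of Gata4, Gata5 and Gata6 were at most 0.15.

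Within hematopoietic cells, Gata1 was found in most erythroid and megakaryocyte cells, and Gata2 in larger shares of progenitor and megakaryocyte cells. Cells were placed in the class of which they expressed the largest share of markers, at least 0.5 of the list, which put 182 cells into an erythroid-like, 13 into a progenitor-like, 20 into a megakaryocyte-like and 29 into a macrophage-like class and left 2 without a class. No GATA gene is among these markers, and 4 cells lay at the minimum of their class. Gata1 was expressed in 177 of 182 erythroid-like cells (97.3%), in 19 of 20 megakaryocyte-like cells, in 7 of 13 progenitor-like cells (53.8%) and in 0 of 29 macrophage-like cells. Gata2, in contrast, was expressed in 8 of 13 progenitor-like cells (61.5%, interval 35.5 to 82.3%) and in 12 of 20 megakaryocyte-like cells (60.0%, interval 38.7 to 78.1%), but in 31 of 182 erythroid-like cells (17.0%, interval 12.3 to 23.2%) and in 1 of 29 macrophage-like cells (3.45%). By day, Gata2 was expressed in 2 of 27 erythroid-like cells at E9.5, in 22 of 77 at E10.5 and in 7 of 78 at E11.5. The organs of these cells differed between days. At E9.5 most were from heart, lung, hindbrain and forebrain, and on the later days most were from the liver. Both E9.5 cells with Gata2 were liver cells, at 1.68 and 1.73. The part of the organ in these counts was not tested.

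Gata1 and Gata2 overlapped in part of the hematopoietic cells. Both were expressed in 48 hematopoietic cells, Gata1 alone in 155, Gata2 alone in 4 and neither in 39. Thus 92.3% of the Gata2 cells expressed Gata1, as did 155 of the 194 cells without Gata2 (79.9%), and 23.6% of the Gata1 cells expressed Gata2. Of the Gata2 cells, 31 of 31 erythroid-like, 12 of 12 megakaryocyte-like and 5 of 8 progenitor-like cells expressed Gata1, and 3 of the 4 cells with Gata2 alone were progenitor-like. Cells of an embryo share their library and were not treated as replicates of this overlap.

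**Figure D2:**
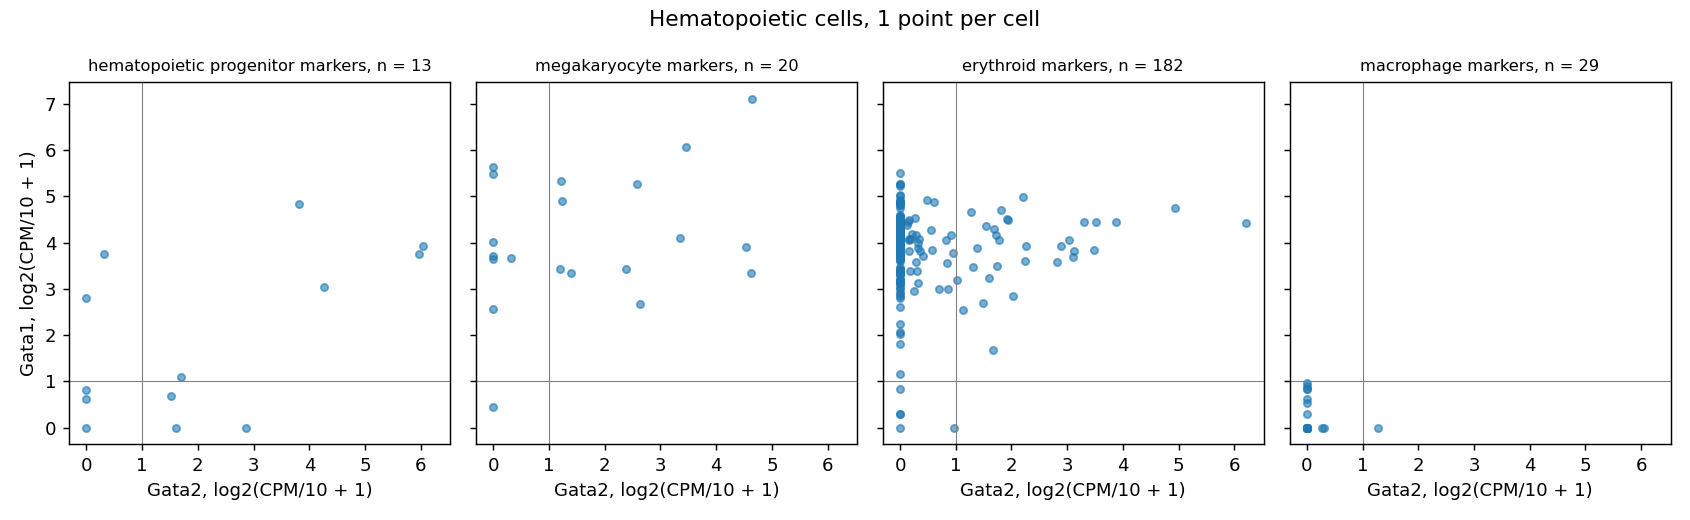
Gata1 against Gata2 in single hematopoietic cells, each as log2(CPM/10 + 1), in 1 panel per marker class, with lines at 1, the level from which a gene counts as expressed, and without the 2 cells that had no class. Of all 246 cells, 48 expressed both genes and 4 only Gata2, and the 29 macrophage-like cells lie below the Gata1 line.

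To ask whether the GATA factors of blood cells differ by organ, hematopoietic cells of the liver, a site of blood formation in the embryo, were compared with those of all other organs. In the liver, Gata1 was nearly the same in every embryo, with 3.32 at E9.5, 3.53 and 3.61 at E10.5, and 3.48 and 3.54 at E11.5. In the other organs it was 4.97 and 3.95 at E9.5, 2.35 and 2.17 at E10.5, and 2.59 and 0.00 at E11.5. The means were 3.50 ± 0.11 (n = 5) and 2.67 ± 1.70 (n = 6), a difference of 0.82 (SE 0.63, limma, adjusted p = 0.497). The embryo at 0.00 had 6 such cells, whose macrophage markers summed to 40.34, the highest of any embryo, and whose erythroid markers summed to 8.48, the lowest. The part of this makeup in the difference was not tested. Gata2 was 0.78 ± 0.36 in the liver and 0.18 ± 0.26 elsewhere, a difference of 0.60 (SE 0.17, limma, adjusted p = 0.109). None of the 6 members was called, at 1.08% of all genes called, 1 had an unadjusted p under 0.05, and edgeR on summed UMIs also called 0 of 6. With the embryo as a block, and within the HiSeq 4000 embryos, Gata1 passed (adjusted p = 0.0299 and 0.0326), whereas in edgeR with DESeq2 size factors its difference was -0.16 (adjusted p = 0.939).

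The clearest contrast among organs was that of Gata4, Gata5 and Gata6 in mesodermal cells. All 3 were high in the heart and in Mes liver, intermediate in Mes lung and close to 0 in Mes intestine, Mes skin and somite. In Mes liver, Gata4 was at 4.76, 3.26 and 3.81 in the 3 E9.5 embryos with such cells, Gata5 at 2.08, 2.04 and 2.58, and Gata6 at 3.68, 2.52 and 3.14. In the heart, Gata4 was at 3.73 and 3.53 at E9.5, 3.15 and 2.93 at E10.5, and 2.67 and 2.65 at E11.5. Gata6 was at 3.25 and 2.29, then 3.07 and 2.71, then 1.90 and 1.63. No embryo of Mes intestine, Mes skin or somite exceeded 0.28 for Gata4, 0.11 for Gata5 or 0.76 for Gata6. Gata5 in the heart was at 0.60 or more in every embryo. The heart and Mes liver thus lay above these 3 organs in every embryo for Gata4, Gata5 and Gata6.

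In tests of each organ against the mean of the other 5, 18 of 36 member contrasts were called at an adjusted p under 0.05, against 7.68% of all gene contrasts, and 21 had an unadjusted p under 0.05. Of the 36, 7 were higher and 11 lower, against 4.3% and 3.37% of all gene contrasts. By organ, the members called were 3 of 6 in the heart (18.4% of all genes there), 3 in Mes liver (2.74%), 2 in Mes lung (3.67%), 3 in Mes intestine (7.46%), 4 in Mes skin (7.7%) and 3 in somite (6.08%). In Mes liver, Gata4 was higher by 3.15 (SE 0.22, limma, adjusted p = 1.58e-11), Gata6 by 2.45 (SE 0.23, adjusted p = 9.41e-09) and Gata5 by 1.66 (SE 0.21, adjusted p = 2.38e-06). In the heart, Gata4 was higher by 2.14 (SE 0.17, adjusted p = 3.41e-12), Gata6 by 1.68 (SE 0.18, adjusted p = 4.14e-09) and Gata5 by 0.83 (SE 0.16, adjusted p = 0.000226). The same 3 genes were lower in Mes intestine (differences -1.50 for Gata4 and -0.99 for Gata6, with Gata5 between them), in Mes skin (-1.55, -1.02 and -1.26) and in somite (-1.55, -0.98 and -1.23), with adjusted p of 0.000109 or less. Of these, the calls of Gata4, Gata5 and Gata6 in Mes liver and Mes skin and of Gata4 and Gata6 in heart and somite held under every alternative tried, whereas that of Gata5 in the heart was lost within the HiSeq 4000 embryos (0.49, adjusted p = 0.0694). Gata5 had no UMI in any of the 77 Mes skin cells, a count of 0 that allows up to 3.90% of cells with a UMI. On summed UMIs in edgeR, the calls in Mes intestine and that of Gata5 in somite were lost.

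Mes lung stood between these organs. Gata4 was 0.75 ± 0.56 and Gata6 0.53 ± 0.45 (n = 6), lower than the mean of the other 5 organs by 0.68 (SE 0.17, limma, adjusted p = 0.0123) and 0.65 (SE 0.18, limma, adjusted p = 0.026), and Gata5 was 1.27 ± 0.53, at 0.50 above that mean (SE 0.16, limma, adjusted p = 0.0772). The direction for Gata4 and Gata6 turned in edgeR, where Gata4 was higher in Mes lung by 2.40 (adjusted p = 0.0015) and Gata6 by 1.16 (adjusted p = 0.39), and the cause was not tested. On log2(CPM + 1) both stayed lower and missed the threshold (adjusted p = 0.0536 and 0.0585). Within the E9.5 embryos, the only ones with Mes liver, the differences were -0.19 (adjusted p = 0.961) and -0.49 (adjusted p = 0.951), and in thinned cells Gata6 was lost (adjusted p = 0.223). In the limma fit, the call of Gata4 was lost without any E10.5 or E11.5 embryo (adjusted p of 0.0836 and 0.0563 for E10.5 embryos 1 and 2, and of 0.0891 and 0.0881 for E11.5 embryos 1 and 2). That of Gata6 was lost without E9.5 embryo 3 (adjusted p = 0.119), E10.5 embryo 1 (0.173), E10.5 embryo 2 (0.14) or E11.5 embryo 2 (0.0651). With the embryo as a block Gata5 passed (adjusted p = 0.0319) and Gata6 did not (adjusted p = 0.0558).

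**Figure D3:**
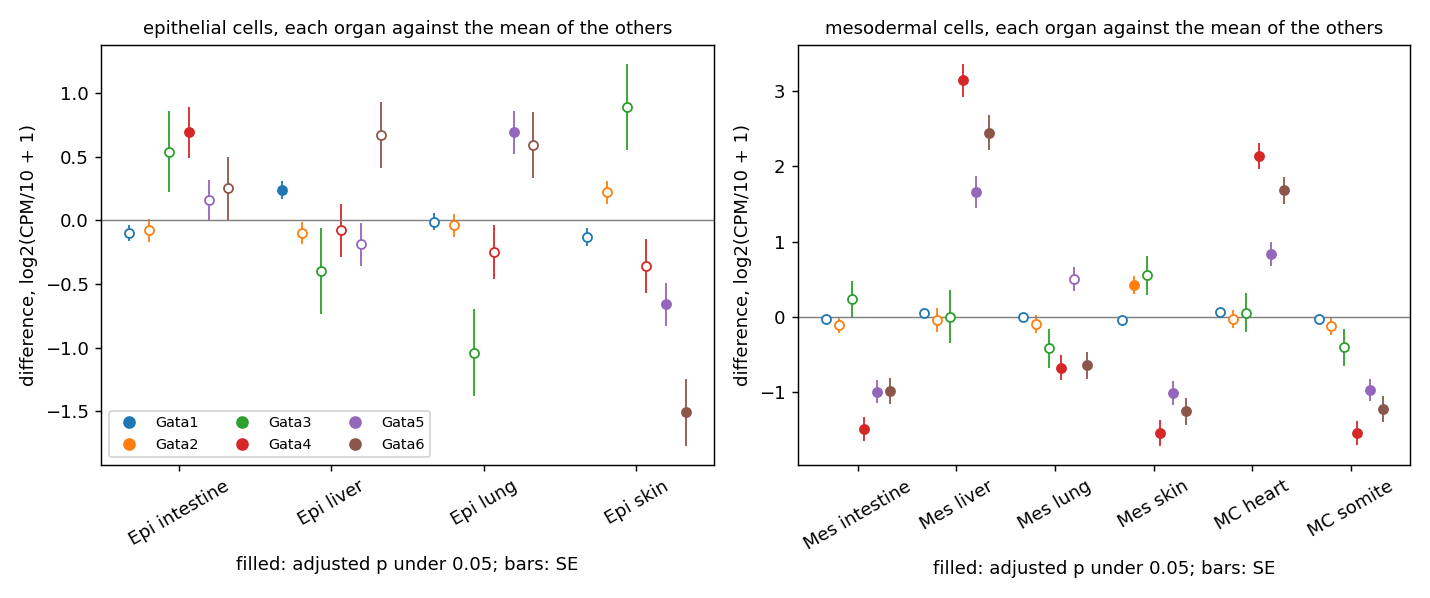
Difference of each organ from the mean of the other organs for Gata1 to Gata6, in epithelial cells and in mesodermal cells, on the log2(CPM/10 + 1) scale, with SE. Filled points have an adjusted p under 0.05, among them Gata4 in Mes liver at 3.15 and Gata6 in Epi skin at -1.51.

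The cells of Mes liver often carried all 3 factors. Of 76 cells, 50 expressed all 3 of Gata4, Gata5 and Gata6 (65.8%), 19 expressed 2, 7 expressed 1 and 0 expressed none. In the heart, 108 of 236 cells expressed all 3 (45.8%), 74 expressed 2, 40 expressed 1 and 14 none, and in Mes lung 14 of 125 did (11.2%). Over all mesoderm-derived cells, 252 of the 291 Gata6 cells (86.6%) and 221 of the 275 Gata5 cells (80.4%) also expressed Gata4. The Mes liver cells came only from E9.5 embryos, so their organ and day cannot be told apart, but within the E9.5 embryos alone, an alternative chosen after the data were seen, Gata4, Gata5 and Gata6 were still called. Mesenchyme markers of these cells summed to 13.42 to 19.78 by embryo, against 11.49 to 33.65 in Mes intestine, Mes lung, Mes skin and somite. Cardiomyocyte markers were present too, with at least 3 of 8 expressed in 51 of the 76 cells, sums of 25.58, 15.52 and 8.20 in E9.5 embryos 1, 2 and 3, Myl7 in 74 cells and Myh7 in 0. In the 51 cells the mean of Gata4 was 4.21 and in the other 25 cells 3.55, for Gata5 it was 2.26 and 2.11, and for Gata6 3.36 and 2.70. Of the epicardial markers, Wt1 was expressed in 56 cells, Tbx18 in 41, Upk3b in 32, Lrrn4 in 23, Upk1b in 22 and Aldh1a2 in 3. Hepatoblast markers summed to 5.19 to 19.46. Dlk1 was in 66 cells, Afp in 63, Apoa2 in 57, Ttr in 46, Apoa1 in 37, Fgb in 30, Alb in 9 and Hnf4a in 0. The part of these genes in the difference was not tested.

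Gata2 and Gata3 behaved differently in mesodermal cells. Gata2 was 0.52 ± 0.62 in Mes skin (n = 6), where E9.5 embryos 2 and 3 stood at 0.08 and 1.50, the E10.5 embryos at 0.58 and 0.97 and the E11.5 embryos at 0.00 and 0.00. It was higher there than in the other 5 organs by 0.42 (SE 0.12, limma, adjusted p = 0.0221), and the call was lost without E9.5 embryo 3 (0.23, adjusted p = 0.179) and without either E10.5 embryo (adjusted p = 0.0926 and 0.155). Gata3 had a level of 0.91 ± 1.02 in Mes skin, and 12 of the 16 Mes skin cells with Gata2 (75.0%) also expressed Gata3. Endothelial markers summed to at most 2.96 in Mes skin and epidermis markers to between 2.25 and 7.89, and their part was not tested. Gata1 was expressed in 3 heart cells and 1 Mes liver cell and in 0 cells of the other 4 mesodermal sets, so that it was tested only because of the cells of the heart, and all 7 mesoderm-derived Gata1 cells carried erythroid markers. Its difference in the heart was 0.06 (SE 0.03, limma, adjusted p = 0.0928; with the embryo as a block, adjusted p = 0.0496). Since the heart cells admitted the gene to the test, nothing is concluded from these p-values.

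To resolve the heart, its 236 mesoderm-derived cells were placed into marker classes in the same way, which gave 138 cardiomyocyte-like, 56 epicardial-like, 24 cushion mesenchyme-like and 14 endothelial-like cells, and 4 without a class. All 236 cells expressed at least 3 of 8 cardiomyocyte markers, and the sums by embryo were 33.29 to 42.01. Gata4 was expressed in 108 of 138 cardiomyocyte-like cells (78.3%, interval 70.7 to 84.3%), 54 of 56 epicardial-like cells (96.4%, interval 87.9 to 99.0%), 23 of 24 cushion mesenchyme-like cells (95.8%) and 14 of 14 endothelial-like cells (100%, interval 78.5 to 100%). Over all days, Gata5 and Gata6 were expressed in 48.6% and 64.5% of cardiomyocyte-like cells, against 70.8 to 71.4% and 78.6 to 87.5% in the other classes, but this order did not hold on each day. At E9.5, Gata5 was in 38 of 59 cardiomyocyte-like and 7 of 12 epicardial-like cells, and Gata6 in 49 of 59 cardiomyocyte-like and 5 of 7 cushion mesenchyme-like cells. At E11.5, Gata5 was in 8 and Gata6 in 12 of 44 cardiomyocyte-like cells, against 10 and 12 of 14 epicardial-like cells. Gata4 was thus found in most cells of every class, and in thinned cells its share was 89.9% in cardiomyocyte-like and 95.5 to 100% in the other classes.

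Gata3 and Gata2 were found mainly in cushion mesenchyme-like and endothelial-like cells. Gata3 was expressed in 14 of 24 cushion mesenchyme-like cells (58.3%, interval 38.8 to 75.5%) and 8 of 14 endothelial-like cells (57.1%, interval 32.6 to 78.6%), but in 13 of 138 cardiomyocyte-like (9.42%) and 3 of 56 epicardial-like cells (5.36%). All 8 of these endothelial-like cells were among the 10 of E9.5, with 0 of 2 at E10.5 and 0 of 2 at E11.5, and 11 of the 13 cardiomyocyte-like cells were of E9.5 as well. The cushion mesenchyme-like cells with Gata3 were 6 of 7, 4 of 9 and 4 of 8 over the 3 days. Gata2 was expressed in 6 of 14 endothelial-like (42.9%), 5 of 24 cushion mesenchyme-like (20.8%) and 4 of 138 cardiomyocyte-like cells (2.90%), and in 0 of 56 epicardial-like cells, which allows a share of up to 5.36%. Every heart cell with Gata2 (15 cells) or Gata3 (39 cells) also expressed Gata4. Median depths were 252695 UMIs in cardiomyocyte-like, 479082.5 in epicardial-like, 277136 in cushion mesenchyme-like and 239171.5 in endothelial-like cells. In cells thinned to 100000 UMIs, Gata3 was found in 12.1%, 5.88%, 59.1% and 53.8% of these classes.

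**Figure D4:**
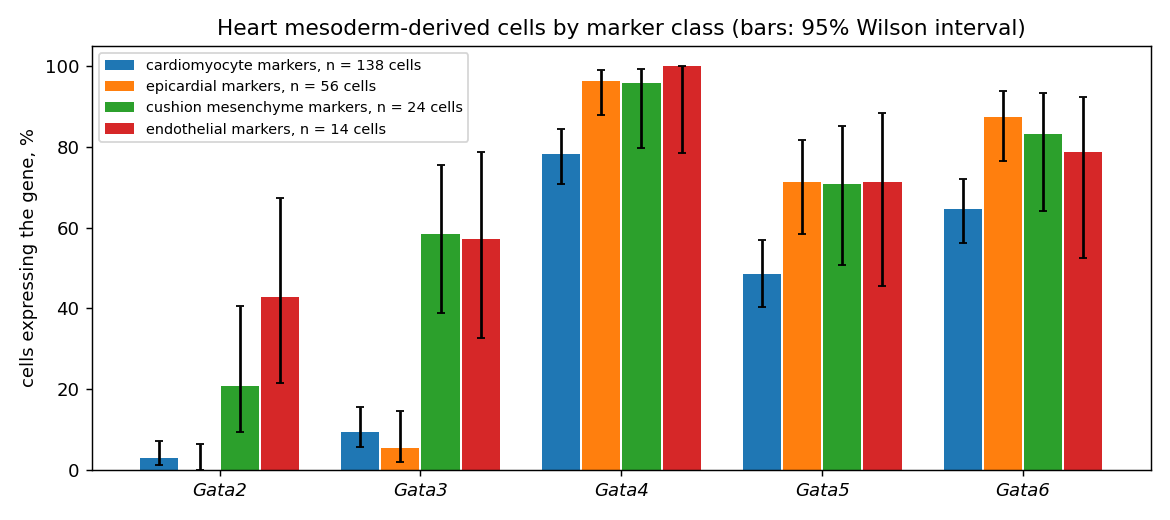
Share of heart cells expressing Gata2 to Gata6 in 4 marker classes, as bars from 0 with 95% Wilson intervals, in percent. Gata3 reaches 58.3% of cushion mesenchyme-like and 57.1% of endothelial-like cells and 9.42% of cardiomyocyte-like cells, while Gata4 is at 78.3% or more in each class.

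Endothelial cells occur in all organs, so it was asked whether their GATA factors depend on the organ. Mesoderm-derived cells that expressed at least 4 of 8 endothelial markers were compared between the heart (35 cells, 4 embryos with at least 3) and all other organs (11 cells, 2 embryos with at least 3). Gata4 was at 4.77, 4.29, 4.70 and 3.13 in the heart and at 1.37 and 0.56 elsewhere, and was expressed in 35 of 35 and 4 of 11 cells. The groups did not overlap, and the difference was 3.26 (SE 0.64, limma, adjusted p = 0.00254). This was the only member called of 5 tested, against 0.713% of all genes, and 3 of the 5 had an unadjusted p under 0.05. Gata5 was 2.58 ± 0.85 and 0.78 ± 1.10 (difference 1.80, SE 0.67, limma, adjusted p = 0.332), and Gata6 was 2.74 ± 1.61 and 1.03 ± 0.40 (difference 1.72, SE 0.72, limma, adjusted p = 0.437). Gata2 was 0.83 ± 0.42 and 1.50 ± 0.83 (difference -0.67, SE 0.58, limma, adjusted p = 0.787), expressed in 31.4% and 54.5% of these cells. Endothelial markers summed to 19.24 to 26.90 in the heart cells and 18.88 to 28.79 in the others, but single markers differed. Kdr was expressed in 28.6% of the heart cells and 90.9% of the others, Emcn in 45.7% and 90.9%, and Esam in 57.1% and 90.9%. The order was reversed for Pecam1 (97.1% and 63.6%), Eng (100% and 81.8%) and Egfl7 (97.1% and 90.9%). The heart embryos were of all 3 days and those outside the heart of E9.5 only. Cardiomyocyte markers summed to 16.87 to 23.40 and 2.19 to 5.50. The part of the markers and of the day was not tested. The call was lost without E9.5 embryo 3, which leaves 1 embryo outside the heart that is assumed to vary like those of the heart (adjusted p = 0.281), within the HiSeq 4000 embryos (adjusted p = 0.716), and when at least 6 of 8 markers were required (adjusted p = 0.118).

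In epithelial cells, 5 of 24 member contrasts of an organ against the mean of the other 3 were called, against 12.3% of all gene contrasts, and 10 had an unadjusted p under 0.05. Of the 24, 3 were higher and 2 lower, against 7.37% and 4.91% of all gene contrasts. By organ, 1 of 6 was called in Epi liver (20.7% of all genes there), 1 in Epi intestine (8.41%), 1 in Epi lung (5.81%) and 2 in Epi skin (14.1%). The labels were checked against markers. Epi liver expressed 8 of 8 hepatoblast markers, Epi lung 4 of 4 lung epithelium markers and Epi skin 3 to 6 of 6 epidermis markers at 1 or more in every embryo, and Epi intestine all 6 general epithelial markers but 1 to 3 of 4 intestine epithelium markers and 2 to 4 of 8 hepatoblast markers. Gata6 was high in the 3 organs lined by endoderm and nearly absent from skin. It was at 1.90, 1.58 and 2.03 (E9.5), 1.61 and 1.45 (E10.5) and 1.77 (E11.5) in Epi liver, and between 0.80 and 1.83 in Epi intestine. In Epi skin no embryo was above 0.30, a difference of -1.51 (SE 0.26, limma, adjusted p = 8.65e-05) that held under every alternative. Gata6 in Epi lung ranged most, with 1.98 and 1.78 at E9.5, 2.31 and 3.06 at E10.5 and 0.88 and 0.00 at E11.5, and did not pass (0.59, SE 0.26, limma, adjusted p = 0.197), whereas it passed in edgeR (adjusted p = 0.00393) and without E11.5 embryo 2, which had 3 such cells (adjusted p = 0.0223).

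Among epithelia, Gata5 had its highest mean in the lung. Its level in Epi lung was 1.12 and 0.76 at E9.5, 0.87 and 1.43 at E10.5, and 0.76 and 1.19 at E11.5. It was higher than in the other 3 organs by 0.69 (SE 0.17, limma, adjusted p = 0.0133), although the highest Epi intestine embryo reached 1.26. The call was lost without E10.5 embryo 2 (adjusted p = 0.101) and within the HiSeq 4000 embryos (adjusted p = 0.06). With at least 5 cells per embryo (adjusted p = 0.143) and within the E9.5 embryos (adjusted p = 0.109) it was lost as well. E9.5 embryo 2 and E11.5 embryo 2 had 3 Epi lung cells each. In Epi skin Gata5 was at most 0.09, lower by 0.66 (SE 0.17, limma, adjusted p = 0.00772), and 0 of 78 cells expressed it, which allows up to 3.85%. Gata4 was higher in Epi intestine than in the other 3 organs by 0.69 (SE 0.20, limma, adjusted p = 0.0248). Its embryos there were spread, at 0.00, 0.23 and 0.10 at E9.5, 2.56 and 0.63 at E10.5, and 0.55 and 1.58 at E11.5. Without E10.5 embryo 1 the difference was 0.38 (adjusted p = 0.11), and the call was also lost without E10.5 embryo 2 (adjusted p = 0.0736) or E11.5 embryo 2 (adjusted p = 0.111), and within E9.5 the difference was -0.07.

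Gata3 had its highest mean in the skin, but the difference was not called. In Epi skin it stood at 1.63 and 2.05 at E9.5, 1.55 and 1.12 at E10.5, and 2.51 and 1.95 at E11.5, and 47 of 78 cells expressed it (60.3%). The difference from the other 3 organs was 0.89 (SE 0.34, limma, adjusted p = 0.0753; with the embryo as a block, adjusted p = 0.0131, and within the HiSeq 4000 embryos, adjusted p = 0.000368). Epi intestine came next at 1.54 ± 1.14 (47.7% of cells), then Epi liver at 0.83 ± 0.35 (42.6%). In Epi lung, Gata3 was 2.04 in E9.5 embryo 2, which had 3 cells, and at most 0.03 in the other 5 embryos.

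Gata1 in Epi liver was called but rests on few cells. Its level was 0.00, 0.01 and 0.07 at E9.5, 0.39 and 0.61 at E10.5, and 0.59 at E11.5, higher than in the other 3 organs by 0.24 (SE 0.07, limma, adjusted p = 0.00945). Only 2 of 47 cells expressed it (4.26%). Erythroid markers in the 6 embryos of Epi liver summed to 1.69, 9.28, 13.30, 14.64, 15.10 and 16.18. Both Gata1 cells of Epi liver expressed at least 3 of the 8, as did 36 of its 45 other cells. In the epithelia of the other organs these sums were 0.06 to 19.26. The part of this in the call was not tested, and the call was lost without E10.5 embryo 1 (adjusted p = 0.0512), E10.5 embryo 2 (adjusted p = 0.104) or E11.5 embryo 2 (adjusted p = 0.0943). It was also lost with at least 5 cells per embryo (limma, adjusted p = 0.256), where the E10.5 embryos, with 4 cells each, are left out.

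The Epi and Mes cells of the same organ were then set side by side. Of 24 pairs of a member and an organ, 5 had ranges over embryos that did not overlap, against 7.25% of all such gene pairs. These were 3 in the liver (16.6% of all genes there), 1 in the lung (3.97%), 1 in the intestine (3.56%) and 0 in the skin (5.06%). In the liver, Mes cells lay above Epi cells for Gata4 (at least 3.26 against at most 0.39), Gata5 (2.04 against 1.19) and Gata6 (2.52 against 2.03). In the lung, Mes cells lay just above Epi cells for Gata4 (0.20 against 0.17). In the intestine the order was turned, with Gata6 higher in Epi cells (at least 0.80) than in Mes cells (at most 0.76), by 1.16 ± 0.55 within embryos and in 7 of 7 of them. Gata3 in the intestine was also higher in Epi than in Mes cells in 7 of 7 embryos, by 0.89 ± 0.57, with overlapping ranges, and in the skin it was higher in 5 of 6 embryos, by 0.89 ± 1.08.

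To follow the GATA factors over development, a slope on embryonic day was fitted for each set with all 3 days. Of 65 slopes, 6 were called, against 3.41% of all gene slopes, with 1 rising and 5 falling (1.06% and 2.35% of all), and 14 had an unadjusted p under 0.05. Of these, 4 of 30 were in mesodermal sets (2.46% of all), 2 of 24 in epithelial sets (1.82%), 0 of 6 in neuronal cells (10.6%) and 0 of 5 in hematopoietic cells of the liver (0.0344%). The sets with a call were the heart (2 of 6, at 5.41% of all genes), Mes lung (2 of 6, 2.27%), Epi intestine (1 of 6, 1.71%) and Epi liver (1 of 6, 2.49%).

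Gata4 and Gata5 fell with day in the heart and in Mes lung. In the heart, Gata5 went from 2.36 and 1.85 at E9.5 through 1.73 and 1.66 at E10.5 to 1.03 and 0.60 at E11.5, a slope of -0.65 per day (SE 0.10, limma, adjusted p = 0.000109). The slope of Gata4 was -0.48 (SE 0.10, limma, adjusted p = 0.00532). That of Gata6 was -0.50 (SE 0.16, limma, adjusted p = 0.0701), which passed within the HiSeq 4000 embryos (adjusted p = 0.00942) and turned positive in edgeR (0.15 under TMM and 0.16 under size factors, adjusted p = 1.0). Every E11.5 embryo was below every E9.5 embryo for these 3 genes. The median slope of all genes in the heart was -0.08, with 740 genes lower and 94 higher, and the E9.5 hearts were also the ones sequenced on the HiSeq 2500. Endothelial markers fell over the same embryos, with sums of 8.79 and 10.17 at E9.5, 6.84 and 4.30 at E10.5, and 4.10 and 3.70 at E11.5, and their part in the slopes was not tested. Within the HiSeq 4000 embryos the slope of Gata5 was -0.88 (adjusted p = 0.0169) and that of Gata4 -0.38 (adjusted p = 0.466), and in thinned cells -0.54 (adjusted p = 0.00475) and -0.30 (adjusted p = 0.337). Without E11.5 embryo 2 or E9.5 embryo 1, Gata4 also missed the threshold (adjusted p = 0.0642 and 0.0552). Within the marker classes, 38 of 59, 21 of 35 and 8 of 44 cardiomyocyte-like cells expressed Gata5 at E9.5, E10.5 and E11.5, whereas 7 of 12, 23 of 30 and 10 of 14 epicardial-like cells did. The counts were 6 of 7, 8 of 9 and 3 of 8 in cushion mesenchyme-like cells and 9 of 10, 0 of 2 and 1 of 2 in endothelial-like cells.

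In Mes lung, Gata4 fell from 1.72 and 0.99 at E9.5 through 0.58 and 0.77 to 0.20 and 0.25 at E11.5 (slope -0.56, SE 0.10, limma, adjusted p = 0.00138). Gata5 fell from 1.73 and 2.08 through 1.25 and 0.90 to 0.79 and 0.86 (slope -0.54, SE 0.10, limma, adjusted p = 0.000941). The days did not overlap for Gata5 between E9.5 and the later days. In the same embryos, cardiomyocyte markers summed to 6.82 in E9.5 embryo 2, which had the highest Gata4, and to 0.63 to 1.93 in the others, epicardial markers to 3.29 against 0.29 to 0.80, and mesenchyme markers to 13.14 and 13.38 at E9.5, 21.82 and 18.03 at E10.5, and 27.03 and 25.09 at E11.5. The part of these genes in the slopes was not tested. Without E9.5 embryo 2, the only HiSeq 2500 embryo of the set, the slope of Gata4 was -0.39 (adjusted p = 0.0971), and that of Gata5 within the HiSeq 4000 embryos was -0.58 (adjusted p = 0.00786). In edgeR on summed UMIs, the slopes of both genes were also negative in heart and Mes lung, with adjusted p from 0.126 to 1.0, and those of Gata3 in Epi intestine and Gata1 in Epi liver had adjusted p of 0.404 and 0.715, so that none of the 6 slope calls held in edgeR.

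In Epi intestine, Gata3 fell by 1.04 per day (SE 0.26, limma, adjusted p = 0.0342), from 3.50, 2.37 and 2.05 at E9.5 to 0.42 and 1.09 at E10.5 and 0.65 and 0.69 at E11.5. All 3 E9.5 embryos were above all later ones, and within the HiSeq 4000 embryos the slope was -0.61 (adjusted p = 0.51). Without E9.5 embryo 1 the slope was -0.77 (adjusted p = 0.231), and without E10.5 embryo 2 or either E11.5 embryo it missed the threshold (adjusted p from 0.0621 to 0.135). Gata4 and Gata5 in the same cells had slopes of 0.54 (adjusted p = 0.185) and 0.51 (adjusted p = 0.0536) in limma. Gata3 in Mes intestine went from 1.88, 1.93 and 0.42 at E9.5 to 0.00 in both E11.5 embryos (slope -0.74, SE 0.21, limma, adjusted p = 0.0578), and in Mes skin the slopes of Gata2 and Gata3 were -0.40 (adjusted p = 0.1) and -0.67 (adjusted p = 0.151), which passed within the HiSeq 4000 embryos (adjusted p = 2.78e-06 and 9.67e-05). There, the only E9.5 embryo is embryo 3, at 1.50 for Gata2 and 2.91 for Gata3, against 0.08 and 0.33 in E9.5 embryo 2, and without embryo 3 the slopes were -0.15 (adjusted p = 0.702) and -0.09 (adjusted p = 0.977). The rising slope was that of Gata1 in Epi liver (0.32, SE 0.06, limma, adjusted p = 0.000896), where the summed erythroid markers stood at 1.69, 9.28 and 13.30 at E9.5, 14.64 and 15.10 at E10.5 and 16.18 at E11.5, and whose part was not tested. Within the HiSeq 4000 embryos the slope was 0.26 (adjusted p = 0.234). Only 2 of 47 Epi liver cells expressed Gata1, and without them the gene would not have met the filter of this fit.

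**Figure D5:**
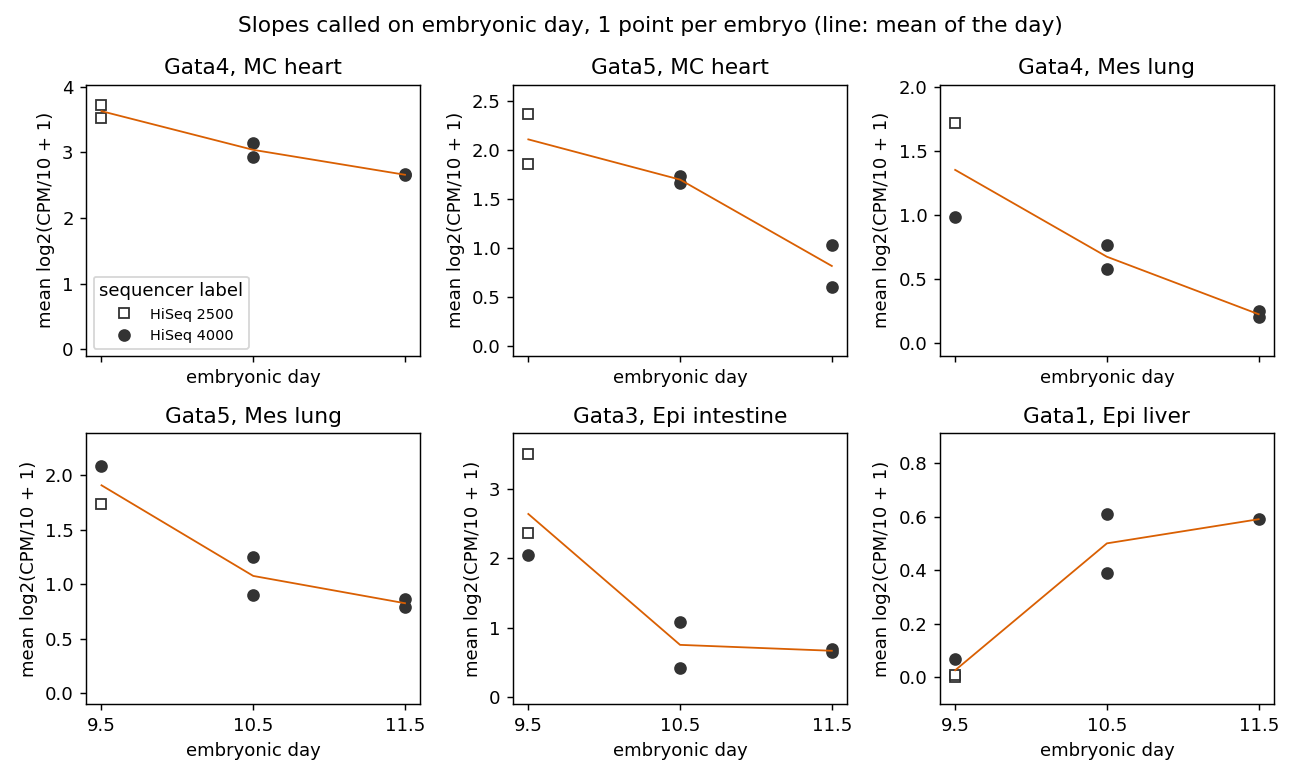
The 6 called slopes, as the level of each embryo against embryonic day on the log2(CPM/10 + 1) scale, with squares for HiSeq 2500 and circles for HiSeq 4000 embryos and a line through the day means. Gata5 in the heart falls from 2.36 and 1.85 at E9.5 to 1.03 and 0.60 at E11.5, and Gata1 in Epi liver rises to 0.59.

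A slope called in 1 organ is not a difference between organs, which was tested for epithelial and neuronal sets. Of 27 slope differences, 1 was called, against 0.95% of all gene differences (1.47% for Epi liver): Gata1 in Epi liver against the mean of the other 3 epithelia (0.32 per day, SE 0.06, limma, adjusted p = 0.00541). The call was lost without E9.5 embryo 2 (adjusted p = 0.0867), within the HiSeq 4000 embryos (adjusted p = 0.45) and in edgeR (adjusted p = 1.0). The slope of Gata3 in Epi intestine differed from the mean of the others by -0.94 (SE 0.31, limma, adjusted p = 0.132), and that of Gata6 in Epi lung by -0.82 (SE 0.29, limma, adjusted p = 0.31). The slopes of the mesodermal sets were not compared with each other.

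The brain held few GATA cells. In the hindbrain, Gata2 was expressed in 4 and Gata3 in 7 of 183 neuronal cells, and no cell expressed both. With so few cells of either gene, this does not show whether they are expressed together. Both genes are known from GABAergic neurons of the brain stem. In the forebrain, 1 of 184 cells expressed Gata2 and 1 expressed Gata3. Of 3 members tested between forebrain and hindbrain, 0 were called, against 1.24% of all genes, 0 had an unadjusted p under 0.05 and edgeR called 0. The largest difference was that of Gata3, at 0.02 ± 0.04 in the forebrain and 0.08 ± 0.07 in the hindbrain (-0.06, SE 0.04, limma, adjusted p = 0.54). Of the 11 hindbrain cells with Gata2 or Gata3, 4 expressed Tal2 (36.4%), as did 55 of the 172 others (32.0%), and 1 expressed a GABA neuron marker (9.09%), as did 24 of the others (14.0%). At least 3 of 6 neuron markers were expressed in 6 of the 11 cells (54.5%) and in 136 of the others (79.1%). The differences in these shares, which rest on 11 cells, were not tested. Gata4 was expressed in 0 of 184 forebrain and 0 of 183 hindbrain cells, which allows up to 1.63% and 1.64%.

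The genes most like each member were found by the Pearson correlation of the levels over 83 set means of 14 sets, among 11674 genes, as a description: the means of an embryo share a library and a depth. For Gata1 these were Kcnn4 (r = 0.987), Gfi1b (0.982), Klf1 (0.982) and Epor, the erythropoietin receptor (0.978). For Gata4 they were the epicardial factor Wt1 (0.871), Ecm1 (0.849) and the cardiac muscle genes Myl7 (0.827) and Tnni1 (0.813). Gata4, Gata5 and Gata6 were close to each other, at 0.807 for Gata4 with Gata5, 0.769 for Gata5 with Gata6 and 0.750 for Gata4 with Gata6. Beside these, Gata5 was most like Smtnl2 (0.772) and Ecm1 (0.751), and Gata6 most like 1010001N08Rik (0.812) and Smtnl2 (0.779). Gata3 followed Npnt (0.765), the keratin Krt19 (0.713) and Tln2 (0.672). Gata2 had no close match, with Itga4 (0.602), Chrna1 (0.574), Cst7 (0.543) and Crym (0.524) leading, and r = 0.372 with Gata1.

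A list of 33 partners of GATA factors, made of co-factors and of transcription factors that act with them, was read in the same fits. Its median difference lay between -0.10 and 0.03 in the 10 organ contrasts, against -0.04 to 0.02 over all genes. In the heart, 8 of 27 tested were higher (29.6%, against 8.63% of all genes) and 1 was lower (3.7%, against 9.78%). The median difference there was 0.03 against -0.04 over all genes. Those higher were the cardiac factors Nkx2-5 (2.55, SE 0.14, limma, adjusted p = 4.71e-16), Tbx20 (2.36), Hand2 (1.51) and Mef2c (1.25), the blood and endothelial factors Klf1 (0.32), Tal1 (0.20) and Lyl1 (0.19), and Fev (0.07), and the one lower was Trps1 (-0.60). In Mes liver, 3 of 27 were higher and 0 lower (2.56% and 0.18% of all genes): Hand2 (2.34), Mef2c (1.47) and the GATA co-factor Zfpm1 (0.97). Hand2 therefore was higher in both sets where Gata4 was highest, whereas Nkx2-5 was called higher in the heart only, and the difference between these sets was not tested. In Mes lung, 5 were higher (2.12% of all genes), with Tbx5 at 3.13 (SE 0.20, limma, adjusted p = 1.43e-13), and 3 lower (1.55%). In Mes intestine 3 were higher and 6 lower (3.69% and 3.77% of all genes), with Hand1 at 3.56 (SE 0.23, limma, adjusted p = 9.99e-14), in Mes skin 3 and 6 (5.34% and 2.35%), and in somite 0 and 6 (3.48% and 2.6%).

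Among epithelia, 26 partners were tested. In Epi lung 4 were higher and 3 lower (2.3% and 3.51% of all genes), with the endoderm factors Foxa2 (2.38) and Foxa1 (1.10) higher. In Epi intestine 3 were higher and 4 lower (4.6% and 3.82%), with Foxa1 at 2.15 and Foxa2 at -1.24, and in Epi liver 5 and 5 (13.2% and 7.5%), with Hnf4a at 2.20. In Epi skin, where Gata6 was lower, 5 were higher and 4 lower (9.33% and 4.8%), with the epidermal factors Tfap2a at 4.25 (SE 0.22, limma, adjusted p = 5.26e-15) and Trp63 at 2.70 (SE 0.15, limma, adjusted p = 8.64e-15), and Foxa1 at -2.50 and Foxa2 at -1.86. In blood cells of the liver against other organs 1 of 22 was higher (0.841% of all genes), Lmo2 (1.82, SE 0.30, limma, adjusted p = 0.00895). Between the brain regions 0 of 21 were called, against 0.275% of all genes higher and 0.965% lower. In endothelial-marker cells of the heart, Tbx20 (3.60) and Hand2 (2.68) were higher and Lmo2 (-2.50) lower, of 19 tested (0.394% and 0.319% of all genes).

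Over the days, 5 of the 27 partners tested in the heart fell (18.5%, against 4.8% of all genes), the cardiac factors Mef2c (-0.71 per day), Tbx20 (-0.57) and Nkx2-5 (-0.55) and the blood and endothelial factors Lyl1 (-0.18) and Tal1 (-0.13), beside Gata4 and Gata5. In Epi liver, Klf1 (0.65 per day) and Lmo2 (0.36) rose beside Gata1.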

How the data were processed

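Single cells were picked by mouth pipette from dissociated organs, so no doublet caller was run, and sequenced with a modified STRT protocol, which counts UMIs at the 3′ side. The authors aligned reads with TopHat 2.0.12 to mm10 and counted UMIs with HTSeq (version and strand setting not given in the sources used here). The deposited values, called TPM by the authors, are CPM, since UMIs per 1000000 of a cell are not divided by length, and are rounded to 0.01. Multiplied by the cell's total they gave whole UMIs, within 0.05, for all but 4 of 11760022 values above 0. Kept cells had 20326 to 2524348 UMIs.

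Major group, organ, Epi or Mes label and embryo came from the study's cell table. Both cells of an identical pair were counted once. Values were put on the log2(CPM/10 + 1) scale, with a pseudocount of 1 after division by 10, which understates changes of low genes, and averaged per embryo over at least 3 cells. Genes that at least 3 compared cells expressed were kept, and their embryo means were fitted with limma 3.58.1 (trend) in R 4.3.3, over all genes, with Benjamini-Hochberg adjustment, and calls made at an adjusted p under 0.05. Other steps used Python 3.11.15. Tests on simulated data covered limma without a block for part of the comparisons, and edgeR under TMM for the epithelial and mesodermal organ contrasts. The block, the other edgeR fits and the remaining statistics were not tested in this way. On the recovered UMIs, summed per embryo and set, edgeR 4.0.16 called 10 of 24 epithelial, 15 of 36 mesodermal and 2 of 65 slope contrasts of the members. These counts are given without the share over all genes and are not read against a background. Since organs of an embryo are of 1 animal, the embryo pairs its samples. The correlations of their deviations were -0.0761 to 0.333 (epithelial), -0.0872 to 0.485 (mesodermal), -0.0535 to 0.706 (brain) and 0.155 to 0.465 (hematopoietic).

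All 6 members are reported, with the 4 genes most like each (1 of those for Gata3 is not reported here) and the called genes of a list of 33 partners. The 17 marker lists, the partners and the members were chosen with earlier results of these data known. Alternatives changed the scale, the filter, the minimum of cells (5), the thinning, the sequencer, the block, the tool, the size of a call and the embryos. Counting identical cells as deposited and keeping E9.5 embryos only were chosen after seeing the data.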

Additional observations from a re-analysis of the deposited data

Results flagged for a closer look

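Gata3 in Mes skin stood apart in E9.5 embryo 3, with a level of 2.91 over 15 cells, while the other 5 embryos lay between 0.24 and 0.93. Its gap to the nearest embryo was 0.74 of the range, above the Dixon limit of 0.625 for 6 samples, in 1 of 26 groups tested, where chance gives about 1 in 20. The slope of Gata1 per day in Epi liver differed from the mean of the other 3 epithelia by 0.32 (limma, adjusted p = 0.00541), a call lost without E9.5 embryo 2, within the HiSeq 4000 embryos and in edgeR (adjusted p = 0.0867, 0.45 and 1.0). The study left out 32 cells with at least 2000 genes, and among them Gata1, Gata3 and Gata4 were each expressed in 4 cells (12.5%) and Gata5 in 5 (15.6%). A count of 0 would allow 9.38%, and the difference from the kept cells was not tested: of the 1801 kept cells with a major group, 12.2% expressed Gata1, 13.4% Gata3, 21.3% Gata4 and 18.9% Gata5.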

How the results depend on the processing

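Few brain cells carried a member UMI, and Mes liver and the endothelial comparison rest on 3 and 2 embryos in their smaller group. Of 24 epithelial contrasts, 5 were called, and 8 on log2(CPM + 1), 10 with edgeR under TMM, 10 under DESeq2 size factors, 1 in E9.5 embryos only (16 tested) and 1 with a size of at least 1. For these epithelial alternatives, the share over all genes is not given. In blood cells 0 became 1 with the replicate block and 1 within HiSeq 4000. Called slopes went from 6 to 2 under both scalings in edgeR, none of them among the 6: Gata3 in Epi lung (adjusted p = 0.0105 under TMM) and in Mes intestine (0.0114). The 1 slope difference became 2 with at least 5 cells, 0 within HiSeq 4000 and 0 with a size minimum. The 1 endothelial call became 0 without the filter, 0 within HiSeq 4000 and 0 with 6 of 8 markers. Members with a major group apart went from 1 to 2 in thinned cells and 2 within HiSeq 4000, and Epi and Mes ranges apart from 5 to 3 on log2(CPM + 1). Leaving out 1 embryo gave 3 to 7 epithelial, 15 to 18 mesodermal, 0 to 0 brain, 0 to 0 blood, 4 to 9 slope, 0 to 2 slope difference and 0 to 2 endothelial calls. In the same fits, calls over all genes ran from 95 to 176 (brain), from 17 to 252 (blood) and from 10 to 124 (endothelial). For the other comparisons this background is not given, and these ranges are not read as results about the members. Reversed were Gata4, Gata5 and Gata6 in Epi intestine within E9.5 (-0.07, -0.25 and -0.19), Gata1 in liver blood cells in edgeR under size factors (-0.16), the slope difference of Gata3 in Epi lung with at least 5 cells (0.25), within HiSeq 4000 (0.05) and without 1 embryo (-0.60 to 0.27), and in edgeR under TMM and size factors Gata4 (2.40 and 2.39) and Gata6 (1.16 and 1.19) in Mes lung, the heart slope of Gata6 (0.15 and 0.16) and the slope difference of Gata3 in Epi intestine (0.37 and 0.28), and the cause was not tested. In epithelial cells edgeR also called Gata5 and Gata6 in Epi intestine, Gata1 and Gata4 in Epi skin, and the slope and slope difference of Gata3 in Epi lung. The replicate block also passed Gata3 in Epi skin (adjusted p = 0.0131), Gata5 in Mes lung (0.0319), Gata1 in heart (0.0496, tested only because of its heart cells) and Gata1 in liver blood cells (0.0299) and lost Gata6 in Mes lung (0.0558). It changed no other call of a member reported here, and could not be fitted for the slope of liver blood cells and the endothelial comparison. Over all genes, brain calls went from 176 to 286 (log2(CPM + 1)), 75 (no filter) and 113 (block), blood calls from 136 to 219, 252 (5 cells), 1481 (block), 1058 (HiSeq 4000) and 378 and 361 (edgeR), slopes from 5956 to 1154 (HiSeq 4000), 1345 and 1162 (edgeR) and 3636 (thinned), slope differences from 682 to 1197 (no filter), 204 (HiSeq 4000) and 166 and 155 (edgeR), and endothelial calls from 76 to 0 (no filter), 10 (HiSeq 4000), 48 and 47 (edgeR) and 10 (6 markers).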

Other observations

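Some cells lie in sets too small for a comparison. Of 13 mesoderm-derived cells of the forebrain, 6 expressed Gata2 (46.2%), with a mean of 1.10 over the 13 cells and a highest value of 3.68. Of 3 neuronal cells of the intestine, 2 expressed Gata3, with a mean of 3.19 and a highest value of 5.55. Both neuronal cells of the heart expressed Gata6, at 1.28 and 1.35. Of 9 hematopoietic cells of the skin, 0 expressed Gata1. Among 65 cells under 2000 genes, which the study did not keep, 9 expressed Gata4 (13.8%) and 5 expressed Gata1 (7.69%).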
